A study of Mus musculus with 7 samples.

Results

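Oxidative phosphorylation genes encode the respiratory chain and ATP synthase of the mitochondrion, and they were read here in single spleen T cells of mice infected with lymphocytic choriomeningitis virus, strain Armstrong. The members were taken by gene symbol: the protein-coding genes of the mitochondrial genome, and the nuclear genes with the prefixes Nduf, Sdh, Uqcr, Cox4 to Cox8 and Atp5. They number 105 of the 27998 genes in the deposited tables, 13 mitochondrial-encoded and 92 nuclear. The nuclear members comprise 7 assembly factors of complex I (Ndufaf1 to Ndufaf7) and genes placed with complexes I to V by symbol, most of them subunits. Ndufa4, a subunit of complex IV despite its symbol, was counted there with Ndufa4l2. Atp5s and Atp5sl, named Dmac2l and Dmac2 in RefSeq, were counted with complex V by their symbols alone.

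Electrons from NADH enter the chain at complex I and those from succinate at complex II. They pass through complex III and cytochrome c to complex IV, which reduces oxygen, and complex V uses the proton gradient to make ATP. Complexes I, III, IV and V are built from subunits of both genomes, whereas the subunits of complex II are all nuclear. Mitochondrial transcripts arise inside the organelle as long precursors that are cut into shorter RNAs, whereas the nuclear members are transcribed as separate genes. T cells that divide after activation lean on glycolysis as well as on respiration, and memory T cells are known for respiration and spare respiratory capacity.

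The 7 libraries, all from spleens of C57bl/6 mice, were made with droplet 3' sequencing. At day 30 after infection there were 2 libraries of activated (CD44high) cells that bound I-Ab tetramers loaded with the viral peptide GP66, here called GP66+ cells. The first was Thpok-deleted (Ox40-Cre+ Thpokfl/fl RosaYFP+) and the second Thpok-sufficient (Ox40-Cre+ Thpokwt/wt RosaYFP+). At day 7 there were GP66+ libraries of the same pair of genotypes and another of wild type mice, the only GP66+ library sorted as CD4+ per its label and without Cre or reporter. The remaining 2 libraries held CD44high T cells of wild type mice at day 7, CD4+ and CD8+ cells that were sorted apart and pooled in equal parts, and are called total replicate 1 and total replicate 2. Cre under the Ox40 promoter acts once a T cell is activated, and the reporter marks the cells in which it acted. Thpok is the transcription factor that keeps helper T cells in the CD4 lineage, and its gene is Zbtb7b. The number of mice behind each library was not stated, and p-values between libraries below therefore reflect library-to-library spread, part of which may be technical. For the comparison of classes of cells inside the 2 total libraries, they reflect only how far the class difference varied between those libraries.

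After filtering, 736 and 723 T cells remained in the Thpok-deleted and Thpok-sufficient libraries of day 30. The Thpok-deleted, Thpok-sufficient and wild type GP66+ libraries of day 7 held 1317, 2130 and 2209 T cells, and total replicates 1 and 2 held 6751 and 2131. The median cell held 2440 and 2017 unique molecular identifiers (UMIs, which count captured RNA molecules) in the Thpok-deleted and Thpok-sufficient libraries of day 30, and 4011 to 5900 in the 5 libraries of day 7. The 5 listed T cell markers found in the tables summed to 2429 to 4049.7 CPM (a library's UMI counts scaled to a common total) in all 7 libraries, and B cell markers to at most 9.76. Zbtb7b had 1 UMI in each Thpok-deleted library, against 20.7 to 31.2 CPM in the Thpok-sufficient and wild type GP66+ libraries. The Thpok-deleted library of day 30 stood apart by its hemoglobin and other erythroid transcripts, 6237 CPM, against 0.210 to 208 in the other libraries. Pairs of libraries shared 1 to 25 cell barcodes, against 0.724 to 20.5 expected at random. The Thpok-sufficient library of day 7 and total replicate 2 shared 15, against 6.20 expected.

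The promoters of 4 nuclear members are shown, Atp5h, Ndufa8 and Uqcrh for their values and Cox6a1 for its motif matches. Among called nuclear members with at least 20 CPM (counts scaled to a common library total), Atp5h had the largest difference between CD8-like and CD4-like cells and Ndufa8 the largest drop at day 30. Cox6a1 is a complex IV subunit with several motif matches. Uqcrh had a log2 fold change of -0.04 at day 30 in the model, although its CPM was lower there without overlap. Each window runs 5′ to 3′ from 250 bases before to 50 bases after the start of transcription in RefSeq (build GRCm38.p6, gene strand). Capitals mark matches, on either strand, to the core of the nuclear respiratory factor 1 motif (GCGCA, then any base, then GCGC) and to an ETS family core (CCGGAAG, on the other strand CTTCCGG).
Atp5h, chr11:115419870-115420169, minus strand: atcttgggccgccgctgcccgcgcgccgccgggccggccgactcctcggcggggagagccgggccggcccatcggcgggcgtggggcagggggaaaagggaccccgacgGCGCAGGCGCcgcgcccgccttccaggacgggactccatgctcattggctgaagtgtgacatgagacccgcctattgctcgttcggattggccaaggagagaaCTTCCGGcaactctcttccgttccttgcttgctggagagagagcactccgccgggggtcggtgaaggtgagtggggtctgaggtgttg
Ndufa8, chr2:36049289-36049588, minus strand: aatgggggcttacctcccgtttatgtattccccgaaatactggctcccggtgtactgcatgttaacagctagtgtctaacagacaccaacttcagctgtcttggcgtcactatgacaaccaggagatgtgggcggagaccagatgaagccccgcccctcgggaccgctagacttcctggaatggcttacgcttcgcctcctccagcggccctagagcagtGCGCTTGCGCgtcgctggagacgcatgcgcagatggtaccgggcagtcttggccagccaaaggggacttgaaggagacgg
Cox6a1, chr5:115348909-115349208, minus strand: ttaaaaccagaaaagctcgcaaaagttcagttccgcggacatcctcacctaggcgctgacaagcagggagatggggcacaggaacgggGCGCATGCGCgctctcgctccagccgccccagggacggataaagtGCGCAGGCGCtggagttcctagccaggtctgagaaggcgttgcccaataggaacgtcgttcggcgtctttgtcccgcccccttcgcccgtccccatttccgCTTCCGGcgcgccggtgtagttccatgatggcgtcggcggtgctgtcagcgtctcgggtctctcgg
Uqcrh, chr4:116075021-116075320, minus strand: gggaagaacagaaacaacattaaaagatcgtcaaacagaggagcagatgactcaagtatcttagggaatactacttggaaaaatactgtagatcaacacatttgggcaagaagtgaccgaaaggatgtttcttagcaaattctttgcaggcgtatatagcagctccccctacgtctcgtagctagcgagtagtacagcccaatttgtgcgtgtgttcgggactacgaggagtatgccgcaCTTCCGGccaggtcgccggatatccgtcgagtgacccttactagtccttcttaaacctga

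RefSeq windows were found for 76 of the 92 nuclear members. The nuclear respiratory factor 1 core stood in a window of 19 of the 76 members (25%), against 5.19% of all 27025 genes with a window. The ETS core stood in 17 members (22.4%), against 9.93% of all genes, and the YY1 core AAGATGGC in 11 members (14.5%), against 3.19%. The cyclic AMP response element TGACGTCA was found in 5.26% of members and 2.03% of all genes, the E-box CACGTG in 9.21% and 8.09%, and CCAAT in 44.7% and 41.1%. Each motif was searched on both strands, and matches of different motifs were counted whether or not they overlapped. Of the members that fell at day 30 (49 with a window), 22.4% held the nuclear respiratory factor 1 core, against 32.0% of the 25 tested members that were not called. These matches are letters in a window and not shown binding sites.

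Mitochondrial-encoded and nuclear members took different shares of the RNA in each library. The 13 mitochondrial-encoded members gave 3.68% and 4.68% of all UMIs in the Thpok-deleted and Thpok-sufficient cells of day 30. In the GP66+ cells of day 7 they gave 3.50% (Thpok-deleted), 3.96% (Thpok-sufficient) and 3.22% (wild type). The Thpok-sufficient library of day 30 was the highest, and the day 30 and day 7 libraries overlapped. The 92 nuclear members gave 1.88% and 1.54% of UMIs in the Thpok-deleted and Thpok-sufficient cells of day 30. In the GP66+ cells of day 7 they gave 3.04% (Thpok-deleted), 2.68% (Thpok-sufficient) and 2.81% (wild type). Both day 30 libraries lay below all 3 of day 7. The ratio of mitochondrial-encoded to nuclear UMIs was thus 1.95 and 3.04 at day 30, against 1.15, 1.48 and 1.15 at day 7.

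**Figure D1:**
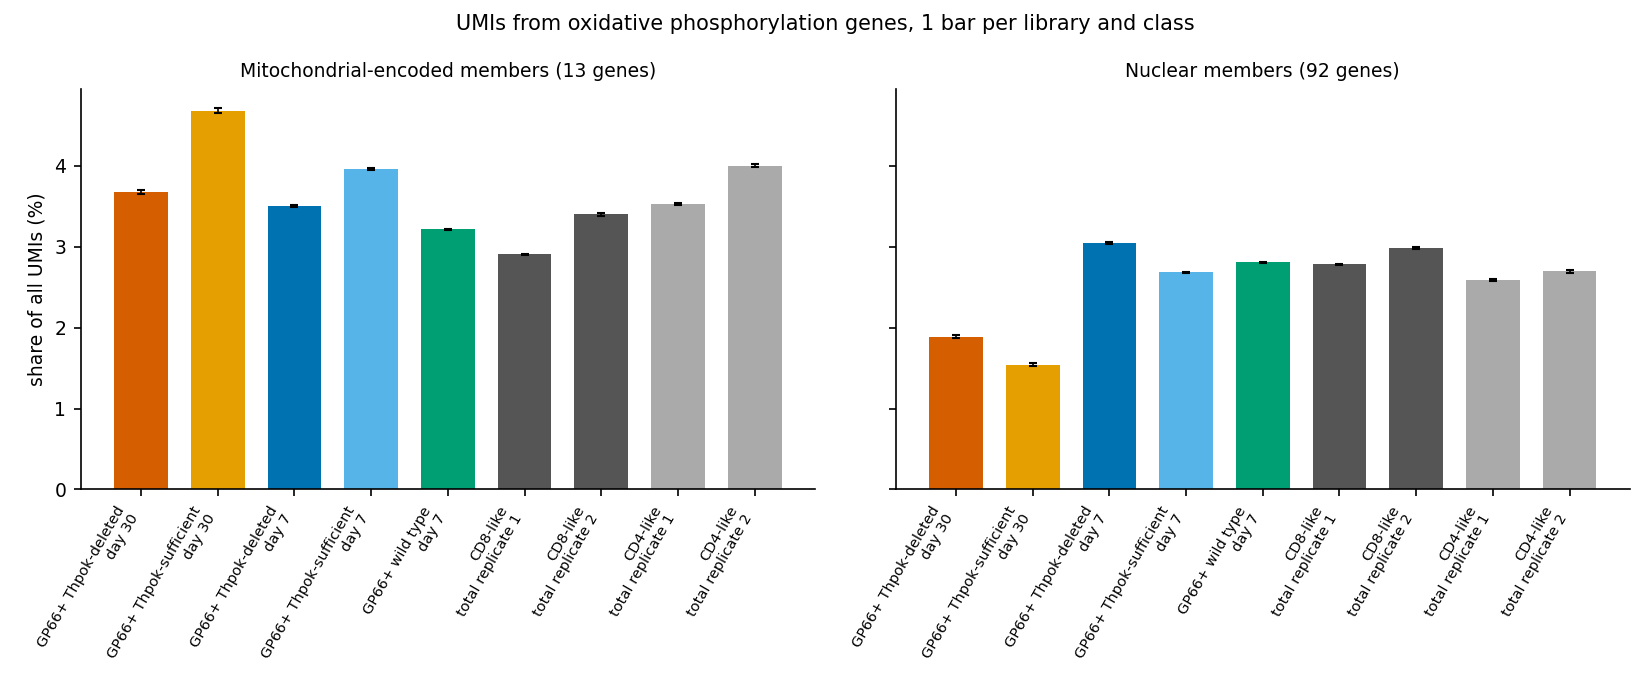
Share of all UMIs (percent, y axis) that came from the 13 mitochondrial-encoded (left) and the 92 nuclear members (right), with 1 bar per library, or per class of cells in the total libraries. Error bars are exact 95% binomial intervals, which cover counting error only. The nuclear share was 1.88% and 1.54% at day 30 and between 2.59% and 3.04% in every bar of day 7.

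Single cells showed the same order of days for nuclear members. In cells thinned to 1500 UMIs each, the median cell of day 30 gave 1.80% (Thpok-deleted) and 1.47% (Thpok-sufficient) of its UMIs to nuclear members. At day 7 the median GP66+ cell gave 3.00% (Thpok-deleted), 2.53% (Thpok-sufficient) and 2.67% (wild type). The spread between cells was wider for mitochondrial-encoded members, with an SD of 1.05 to 1.35 percentage points over the 7 libraries, than for nuclear members, with 0.422 to 0.673. Thinning left out 46 Thpok-deleted and 152 Thpok-sufficient cells of day 30, and at most 14 cells of any other library, because they held fewer than 1500 UMIs. The unthinned medians were 1.76% and 1.45% for nuclear members in the Thpok-deleted and Thpok-sufficient cells of day 30, and 2.99%, 2.56% and 2.66% in the Thpok-deleted, Thpok-sufficient and wild type cells of day 7. Across cells of the same library, the thinned mitochondrial-encoded and nuclear shares were weakly related at most, with Spearman correlations of -0.26 to 0.05 over all T cells. These cells share a library, and both shares are parts of the same 1500 UMIs.

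The first comparison asked how the members of GP66+ cells differed between the memory phase (day 30) and the effector phase (day 7), over 2 and 3 libraries, with genotype in the model. Nuclear members fell at day 30 and 7 mitochondrial-encoded members rose. By the quasi-likelihood test of edgeR, with p-values adjusted over all genes, 57 of 86 tested nuclear members were lower and 0 were higher, while 11.9% of all genes tested were called lower and 9.98% higher. The median log2 fold change was -0.66 over the tested nuclear members and 0.03 over all genes. Of the 13 mitochondrial-encoded members, 7 were higher and 0 lower, with a median of 0.83. Nuclear members higher and mitochondrial-encoded members lower also numbered 0 at an unadjusted p under 0.05, and 0 by DESeq2. Both day 30 libraries lay below all 3 libraries of day 7 for 76 of the 86 nuclear members (88.4%), against 32.8% of all genes tested. They lay above for 8 of the 13 mitochondrial-encoded members (61.5%), against 20.8% of all genes.

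The 7 risen mitochondrial-encoded members were 6 subunits of complex I and mt-Atp8. Levels below are CPM, and fold changes come from the model with its scaling factors. mt-Atp8, a small membrane subunit of ATP synthase (chromosome M, 7766 to 7969, plus strand, GRCm38), had 133 and 174 in the Thpok-deleted and Thpok-sufficient cells of day 30. At day 7 it had 33.8, 43.4 and 27.2 in the Thpok-deleted, Thpok-sufficient and wild type cells. The days did not overlap, and the log2 fold change was 2.34 ± 0.29 (SE; edgeR adjusted p = 0.0125). Per the labels, RNA reads were 98 or 57 bases long, without saying which library had which. The part of read length in the values of such short genes was not tested.

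mt-Nd4l, a membrane subunit of complex I (chromosome M, 9877 to 10173), had 144 and 218 in the Thpok-deleted and Thpok-sufficient cells of day 30. In day 7 cells it had 61.1, 63.3 and 101 in the Thpok-deleted, Thpok-sufficient and wild type cells. It rose by 1.53 ± 0.21 (SE, log2; edgeR adjusted p = 0.0144), with the wild type library highest at day 7. mt-Nd3, another membrane subunit (chromosome M, 9459 to 9806), averaged 636 ± 94.9 at day 30 (SD, n = 2 libraries) and 277 ± 65.9 at day 7 (SD, n = 3). Its log2 fold change was 1.38 ± 0.30 (SE; edgeR adjusted p = 0.0335).

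mt-Nd2 averaged 1200 ± 250 at day 30 and 670 ± 78.8 at day 7 (log2 fold change 1.03, edgeR adjusted p = 0.0381). mt-Nd1 averaged 4019 ± 935 at day 30 and 2351 ± 164 at day 7 (log2 fold change 0.97, edgeR adjusted p = 0.0376). Both are core membrane subunits of complex I, and in both the Thpok-sufficient library of day 30 was the highest of all. mt-Nd5 and mt-Nd6, the 2 other subunits that rose, had log2 fold changes of 0.83 and 0.94. mt-Nd6, the only member on the minus strand of the mitochondrial genome, was scarce, with 28.0 and 40.7 in the Thpok-deleted and Thpok-sufficient cells of day 30 and 16.7, 22.9 and 25.5 in the Thpok-deleted, Thpok-sufficient and wild type cells of day 7.

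The other 6 mitochondrial-encoded members did not pass the test. mt-Co1, the catalytic subunit of complex IV (chromosome M, 5328 to 6872), had 6380 and 6876 in the Thpok-deleted and Thpok-sufficient cells of day 30. The day 7 values were 6499, 7563 and 6592 in the Thpok-deleted, Thpok-sufficient and wild type cells. These overlapped, and the log2 fold change was 0.15 ± 0.17 (SE; edgeR adjusted p = 0.550). mt-Co3 (0.31), mt-Co2 (0.36), mt-Atp6 (0.37) and mt-Cytb (0.53), which encodes cytochrome b of complex III, had log2 fold changes above 0 and overlapped between days. mt-Nd4 did not overlap between days but missed the threshold (log2 fold change 0.68, edgeR adjusted p = 0.0805). Some of these genes share bases: mt-Atp8 and mt-Atp6 share 43, mt-Nd4l and mt-Nd4 share 7, and mt-Nd5 and mt-Nd6 share 14 on opposite strands. Reads over such bases cannot be assigned to a single gene, since the sources used here do not give how strand and overlaps were counted. mt-Atp8 and mt-Nd4l were called, while mt-Atp6 and mt-Nd4, with which they share bases, were not. The cause of this split was not tested, nor whether genes that share bases were read from separate RNAs.

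**Figure D2:**
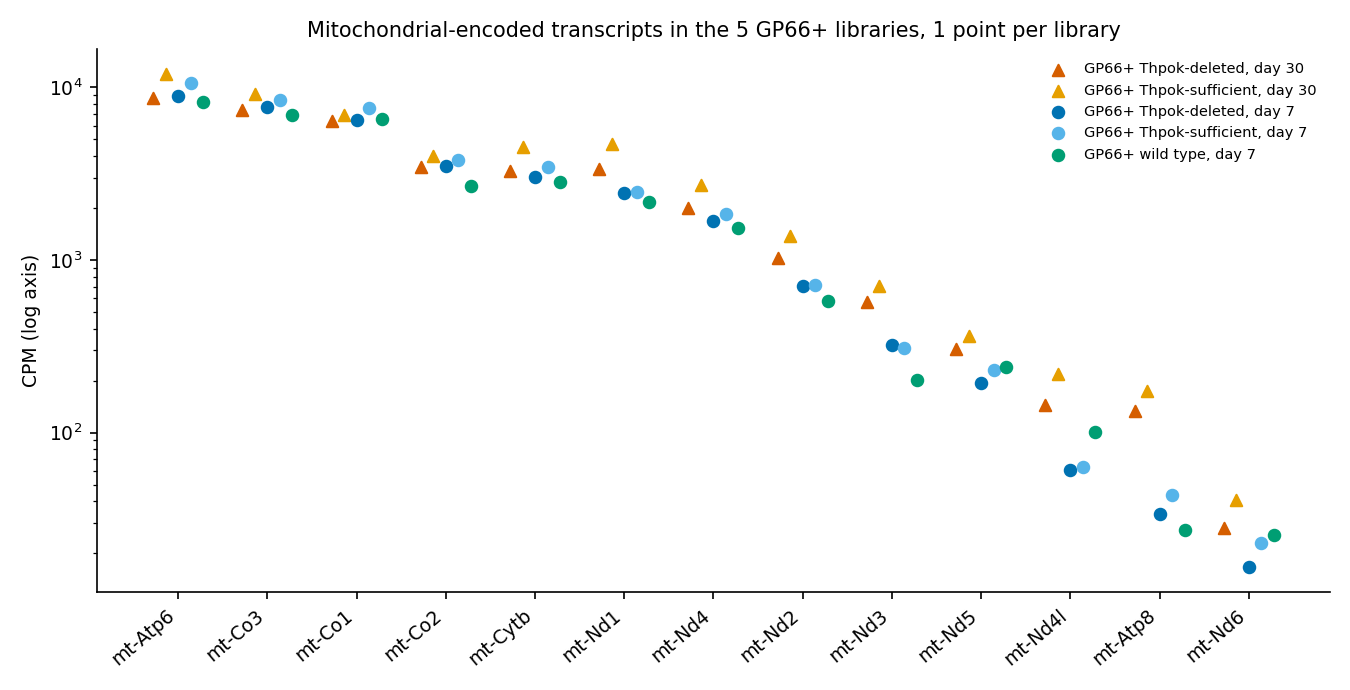
CPM (log axis) of the 13 mitochondrial-encoded members in the 5 GP66+ libraries, 1 point per library, with triangles for day 30 and circles for day 7. For mt-Atp8 both triangles (133 and 174) lie above all circles (27.2 to 43.4), whereas for mt-Co1 they lie among them.

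Among nuclear members, the drop at day 30 reached every complex. Of the tested members placed with complexes I, II and III, 26 of 36, 3 of 4 and 5 of 8 fell. For complexes IV and V these were 11 of 14 and 11 of 17. The median log2 fold changes were -0.74, -0.90, -0.62, -0.66 and -0.65 in that order. Of the 7 assembly factors of complex I, 1 fell, Ndufaf3 (log2 fold change -0.80, edgeR adjusted p = 0.0335), and their median was -0.35.

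In complex I, Ndufa8, an accessory subunit on the intermembrane space side (chromosome 2, 36036326 to 36049406, minus strand), had 91.1 and 64.0 CPM in the Thpok-deleted and Thpok-sufficient cells of day 30. At day 7 it had 206, 174 and 182 in the Thpok-deleted, Thpok-sufficient and wild type cells. It fell by 1.16 ± 0.13 on the log2 scale (SE; edgeR adjusted p = 0.0112), and the days were far apart. Its promoter, printed above, holds 1 nuclear respiratory factor 1 core. Ndufa9, an accessory subunit near the quinone site, averaged 37.1 ± 16.9 at day 30 and 84.8 ± 10.5 at day 7 (log2 fold change -1.12, edgeR adjusted p = 0.0257). Ndufb8, in the membrane arm, averaged 118 ± 36.7 at day 30 and 264 ± 33.8 at day 7 (log2 fold change -1.08, edgeR adjusted p = 0.0121). Ndufa13, among the members with most UMIs, fell by 0.55 (edgeR adjusted p = 0.0442), and Ndufa2 had -0.22 and did not pass.

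In complex II, Sdhd, which anchors the enzyme in the membrane (chromosome 9, 50596357 to 50603812, minus strand), had 47.2 and 31.0 in the Thpok-deleted and Thpok-sufficient cells of day 30. Its day 7 values were 101, 88.0 and 79.3 in the Thpok-deleted, Thpok-sufficient and wild type cells. It fell by 1.10 ± 0.17 on the log2 scale (SE; edgeR adjusted p = 0.0170). Sdhb, the iron-sulfur subunit, fell by 0.95 (edgeR adjusted p = 0.0144), and the other membrane anchor, Sdhc, by 0.85 (edgeR adjusted p = 0.0345). Sdha, the flavoprotein subunit, had a log2 fold change of -0.34 and was not called, although the days did not overlap.

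In complex III, Uqcr10, a small accessory subunit, averaged 246 ± 30.7 at day 30 and 477 ± 31.2 at day 7 and fell by 0.78 (edgeR adjusted p = 0.0185). Uqcrh, the hinge protein that helps cytochrome c meet cytochrome c1, had 751 and 704 in the Thpok-deleted and Thpok-sufficient cells of day 30. At day 7 it had 774, 903 and 908 in the Thpok-deleted, Thpok-sufficient and wild type cells. The days did not overlap in CPM, with day 30 lower. Its log2 fold change was -0.04 ± 0.13 (SE; edgeR adjusted p = 0.853) once the scaling factors were applied. Uqcrh has 2 named pseudogenes in the annotation, so its counts may be shared with near copies. Uqcrfs1, the Rieske iron-sulfur protein, had -0.44 and was not called.

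In complex IV, Cox5a (chromosome 9, 57521274 to 57532426, plus strand) had 253 and 169 in the Thpok-deleted and Thpok-sufficient cells of day 30. The values of day 7 were 588, 363 and 403 in the Thpok-deleted, Thpok-sufficient and wild type cells. It fell by 1.01 ± 0.13 on the log2 scale (SE; edgeR adjusted p = 0.0138). Cox4i1 and Cox8a, the isoforms of most tissues, fell by 0.56 and 0.59 (edgeR adjusted p = 0.0392 and 0.0317). Cox7a2 fell by 0.82 (edgeR adjusted p = 0.0182), whereas its paralogue Cox7a2l averaged 545 ± 44.8 at day 30 and 545 ± 58.9 at day 7. Cox7a2l had a log2 fold change of 0.23 ± 0.13 (SE; edgeR adjusted p = 0.234). Cox6a1, whose promoter is printed above, fell by 0.60 (edgeR adjusted p = 0.0414) and was named after its values were seen.

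In complex V, Atp5e, the epsilon subunit, averaged 554 ± 18.0 at day 30 and 959 ± 57.7 at day 7 and fell by 0.60 (edgeR adjusted p = 0.0391). The 3 genes of subunit c, the ring that turns with the proton flow, encode the same mature protein. Atp5g3 fell by 0.81 (edgeR adjusted p = 0.0187) and Atp5g2 by 0.54 (edgeR adjusted p = 0.0381). Atp5g1 averaged 255 ± 0.520 at day 30 and 370 ± 7.42 at day 7, without overlap, with a log2 fold change of -0.35 that was not called (edgeR adjusted p = 0.105). Atp5h, a peripheral stalk subunit, had 641 and 428 in the Thpok-deleted and Thpok-sufficient cells of day 30 and 1007, 654 and 613 in the Thpok-deleted, Thpok-sufficient and wild type cells of day 7. These overlapped, and the log2 fold change was -0.42 (edgeR adjusted p = 0.110).

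Ndufa6, in complex I, was the only tested nuclear member with both day 30 libraries above all of day 7. It had 290 and 289 in the Thpok-deleted and Thpok-sufficient cells of day 30 and 256, 269 and 242 in the Thpok-deleted, Thpok-sufficient and wild type cells of day 7. It was not called (log2 fold change 0.36, edgeR adjusted p = 0.134). Ndufb4, Ndufa5 and Ndufa3 had log2 fold changes of -0.02, 0.01 and 0.10, the last 2 with overlap between days; Ndufa5 and Ndufa3 were named after their values were seen.

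**Figure D3:**
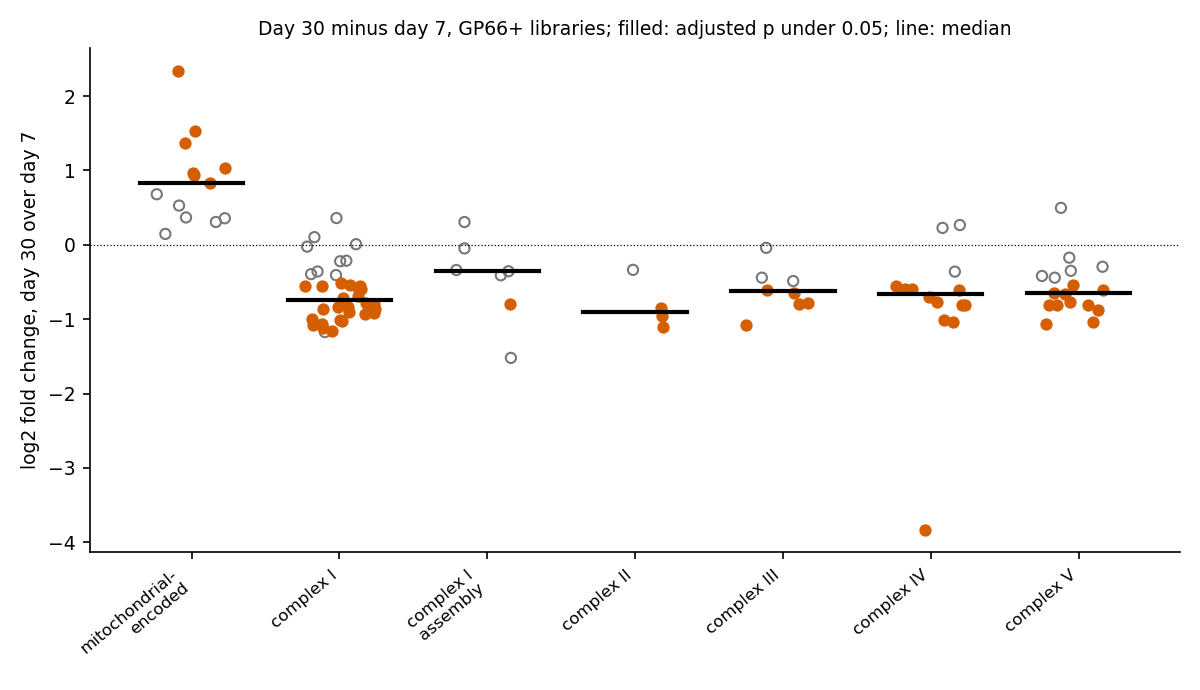
Log2 fold change of each tested member at day 30 over day 7 in GP66+ cells, by genome and complex, 1 point per gene. Filled points passed the test (edgeR adjusted p under 0.05), and lines mark the median, 0.83 for mitochondrial-encoded members and -0.74 for nuclear subunits of complex I; the lowest point is Cox7a1, with 1 UMI in all at day 30.

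Other measures moved with day. Genes of the cell cycle list summed to 3461 and 2002 CPM in the Thpok-deleted and Thpok-sufficient cells of day 30, and to 9627, 5121 and 6499 in the Thpok-deleted, Thpok-sufficient and wild type cells of day 7, and 18 of 20 fell. Genes of the list for stress during tissue dissociation summed to 8273 and 8647 at day 30 and to 2038, 3555 and 2784 at day 7 in the same order, and 7 of 12 rose. Cells of day 30 also held fewer UMIs, as given above. With cells of 1500 to 3500 UMIs alone, 8 nuclear members fell and 5 mitochondrial-encoded members rose, with median log2 fold changes of -0.41 and 0.50, while 4.09% of all genes were called lower and 7.31% higher. In those cells the mitochondrial-encoded share was 3.70% and 4.74% in the Thpok-deleted and Thpok-sufficient cells of day 30 and 4.402%, 4.73% and 4.28% in the Thpok-deleted, Thpok-sufficient and wild type cells of day 7. The nuclear share there was 1.75% and 1.497% at day 30 and 2.76%, 2.31% and 2.44% at day 7, still without overlap. With cells of at most 1 cell cycle UMI among 1500 drawn, 13 nuclear members fell and 6 mitochondrial-encoded members rose, with 5.53% of all genes called lower and 7.22% higher. In near-empty droplets of at most 100 UMIs, which hold free RNA, nuclear members gave 1.87% and 1.44% of UMIs in the Thpok-deleted and Thpok-sufficient libraries of day 30, and 2.82%, 2.47% and 3.38% in the Thpok-deleted, Thpok-sufficient and wild type libraries of day 7. The part of dissociation stress and of free RNA in the result was not tested.

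The day calls rest on few libraries. No member was called when either day 30 library or the Thpok-deleted library of day 7 was left out, and 11 nuclear and 2 mitochondrial-encoded members were called without the Thpok-sufficient library of day 7, with 4.30% of all genes lower and 5.13% higher. The median of the nuclear members stayed between -0.72 and -0.64 under these omissions, and that of the mitochondrial-encoded members between 0.48 and 0.94. Without the Thpok-deleted library of day 30, which held the erythroid transcripts, these medians were -0.64 and 0.94. Scaling to library totals moved the median of all genes by -0.18, and 61 nuclear members were then called lower and 7 mitochondrial-encoded members higher, with 13.3% of all genes lower and 6.40% higher. Among CD4-like cells alone, 26 nuclear members were called lower and 5 mitochondrial-encoded members higher, with 4.50% of all genes lower and 4.27% higher.

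Genes that work with the chain moved in part with the nuclear members at day 30, when 11.9% of all genes tested were called lower and 9.98% higher. Of the tricarboxylic acid cycle, which feeds NADH and succinate to the chain, 8 of 16 listed genes fell and 0 rose, with a median log2 fold change of -0.70. Fh1, fumarate hydratase, fell by 1.59, Idh3g by 1.27 and Idh3a by 1.15, the last 2 being subunits of the NAD-dependent isocitrate dehydrogenase. Of carriers of the mitochondrial membranes, 7 of 12 fell, led by Slc25a5, the ADP/ATP carrier (log2 fold change -1.38), and the channels Vdac3 (-1.37) and Vdac1 (-1.31). Of 34 electron carriers and assembly factors, 8 fell, among them Cox18, Tmem126b and Sco2. Of 16 glycolysis genes, 9 fell, with the largest change in Tpi1 (-2.63), Pkm (-1.61) and Pgam1 (-1.34). Of 19 tested regulators of mitochondrial DNA and biogenesis, 1 rose, the coactivator Ppargc1b (1.28), and 1 fell, the mitochondrial single-stranded DNA binding protein Ssbp1 (-0.69). Both counts were below the shares of all genes.

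The second comparison asked how CD8-like cells differed from CD4-like cells inside the 2 total libraries. A cell was CD8-like if it held UMIs of Cd8a or Cd8b1 but none of Cd4, and CD4-like if it held Cd4 but neither CD8 gene. There were 3552 CD8-like and 1448 CD4-like cells in replicate 1 and 1073 CD8-like and 551 CD4-like cells in replicate 2, and the library was a block in the model. Cells with neither Cd4 nor a CD8 gene (1428 and 351 in replicates 1 and 2) or with both (323 and 156) were in no class. Nuclear members were higher in CD8-like cells and mitochondrial-encoded members lower. By edgeR, 37 of 86 nuclear members were higher and 2 lower, while 17.7% of all genes tested were called higher and 18.4% lower. The median log2 fold change was 0.14 over nuclear members and -0.02 over all genes. Of the mitochondrial-encoded members, 0 were higher (0 also at an unadjusted p under 0.05) and 9 of 13 lower, with a median of -0.18. DESeq2 called 19 nuclear members higher and 0 lower, and 3 mitochondrial-encoded members lower and 0 higher, with 7.28% of all genes called higher and 6.13% lower. The mitochondrial-encoded share was 2.90% (CD8-like) and 3.53% (CD4-like) in replicate 1, and 3.40% (CD8-like) and 4.004% (CD4-like) in replicate 2. The nuclear share was 2.78% (CD8-like) and 2.59% (CD4-like) in replicate 1, and 2.98% (CD8-like) and 2.70% (CD4-like) in replicate 2.

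Complexes IV and V held the highest parts of called genes, with 11 of 14 and 9 of 17 higher in CD8-like cells, against 13 of 36 for complex I, 2 of 4 for complex II (Sdhb and Sdhd) and 2 of 8 for complex III (Uqcrfs1 and Uqcrq). Atp5h (chromosome 11, 115415689 to 115419962, minus strand) had the largest change among called members with at least 20 CPM. It had 1141 and 1101 CPM in CD8-like cells of replicates 1 and 2, and 657 and 662 in CD4-like cells. The log2 fold change was 0.85 ± 0.05 (SE; edgeR adjusted p = 2.28e-12), and the classes were well apart in both libraries. Its promoter, printed above, holds a nuclear respiratory factor 1 core and an ETS core.

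Cox5a had 549 and 590 in CD8-like cells of replicates 1 and 2 and 383 and 398 in CD4-like cells (log2 fold change 0.62, edgeR adjusted p = 3.60e-09). Ndufb7, an accessory subunit of complex I, had 421 and 512 in CD8-like cells and 321 and 348 in CD4-like cells (log2 fold change 0.55, edgeR adjusted p = 9.10e-08). Uqcrfs1 had 263 and 260 in CD8-like cells and 196 and 191 in CD4-like cells (log2 fold change 0.52, edgeR adjusted p = 9.66e-07). In all 3 the classes did not overlap. Both members lower in CD8-like cells were assembly factors of complex I, Ndufaf6 (log2 fold change -0.57, edgeR adjusted p = 0.0347) and Ndufaf4 (-0.32, edgeR adjusted p = 0.0372). Ndufaf6 had at most 10.5 CPM in any class. Uqcrh and Atp5g2 did not pass, with log2 fold changes of 0.00 and 0.08.

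Of the mitochondrial-encoded members, mt-Nd6 had the largest difference, with 11.7 and 17.2 in CD8-like cells of replicates 1 and 2 and 19.8 and 22.7 in CD4-like cells (log2 fold change -0.54, edgeR adjusted p = 0.00811). mt-Atp8 had 37.9 and 36.1 in CD8-like cells and 54.7 and 43.7 in CD4-like cells (log2 fold change -0.36, edgeR adjusted p = 0.00850). mt-Atp6 had 6842 and 8410 in CD8-like cells and 8546 and 10215 in CD4-like cells (log2 fold change -0.22, edgeR adjusted p = 7.83e-05). mt-Atp6 was lower in CD8-like cells within each library, but CD8-like cells of replicate 2 nearly reached CD4-like cells of replicate 1. The 4 members not called were mt-Nd1, mt-Nd3, mt-Nd4l and mt-Co2, at -0.10 to -0.15.

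**Figure D4:**
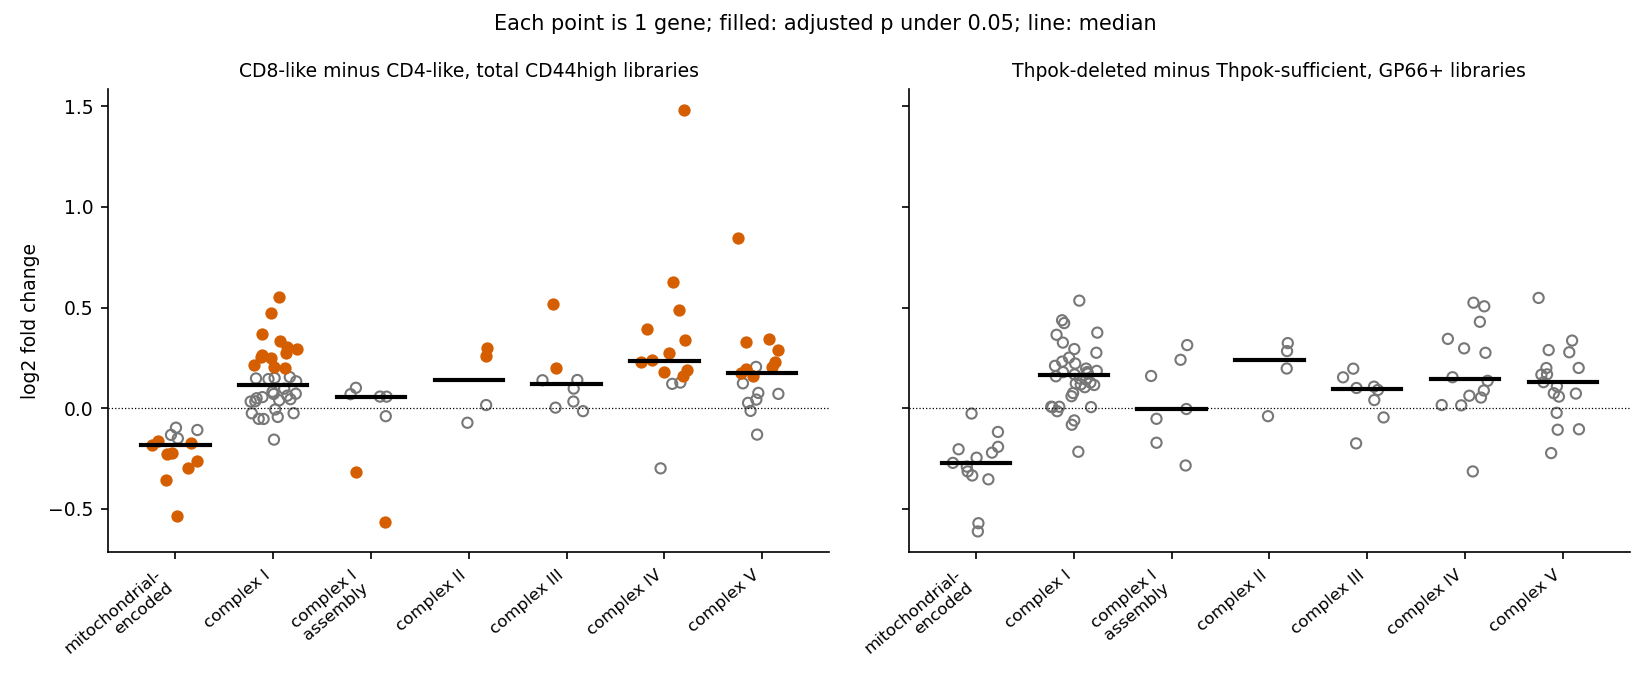
Log2 fold change of each tested member, 1 point per gene, by genome and complex, for CD8-like over CD4-like cells of the total libraries (left) and Thpok-deleted over Thpok-sufficient GP66+ cells (right). Filled points passed the test (edgeR adjusted p under 0.05) and lines mark medians. The median is 0.14 for nuclear members on both sides, and no point on the right is filled.

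Cell cycle genes also differed between these classes, at 7795 and 8504 CPM in CD8-like cells of replicates 1 and 2 and 4773 and 4457 in CD4-like cells, and all 20 were higher in CD8-like cells by the same test. Genes of the list for dissociation stress moved the other way, 7 of 11 tested being lower in CD8-like cells and 0 higher, with a median log2 fold change of -0.48. They summed to 806 and 1263 CPM in CD8-like cells of replicates 1 and 2 and to 947 and 1640 in CD4-like cells. The part of dissociation stress in the lower mitochondrial-encoded levels was not tested. With cells of at most 1 cell cycle UMI among 1500 drawn, 11 nuclear members were higher and 1 lower, and 1 mitochondrial-encoded member was lower, with medians of 0.07 and -0.14. Of all genes, 8.77% were called higher and 7.19% lower there, so the mitochondrial-encoded count, 1 of 13, was near that share. With cells of 1500 to 3500 UMIs alone, 23 nuclear members were higher and 1 lower, while 2 mitochondrial-encoded members, mt-Co1 among them, were higher in CD8-like cells and 0 lower, with 9.68% of all genes called higher and 9.67% lower. In those cells the direction called over all cells was turned round for mt-Co1 (log2 fold change 0.17) and the median of the 13 was -0.04. Without the library as replicate block, 5 of 86 nuclear members were called, all higher, and 0 mitochondrial-encoded members. This was near the share of all genes, 4.85% of which were called higher and 5.73% lower. Leaving out a library leaves no test.

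Among the companion lists, glycolysis ran against the nuclear members, 1 of 16 genes being higher in CD8-like cells and 8 lower. Of all genes tested, 17.7% were called higher and 18.4% lower. The gene that was higher was Slc2a3, a glucose transporter (log2 fold change 1.53), and Tpi1 (-0.88) and Pfkl (-0.85) led those lower. The uncoupling protein gene Ucp2 was lower in CD8-like cells (-0.46), as was the aspartate-glutamate carrier Slc25a13 (-1.56), and Vdac2 was higher (0.35). Of 16 tricarboxylic acid cycle genes 5 were higher and 2 lower, with Suclg2 at 0.60, Suclg1 at -0.49 and Idh3a at 0.48. Of 34 electron carriers and assembly factors 7 were higher and 3 lower, the 3 being Sdhaf1 (-0.89), Cox14 (-0.70) and Atpaf1 (-0.56). Of 19 regulators 1 was higher, Nrf1, the gene of nuclear respiratory factor 1 (0.40), and 1 lower, Polg, the mitochondrial DNA polymerase (-0.55). Both counts were below the shares of all genes, and the electron carriers and assembly factors called higher were near that share.

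The third comparison set Thpok-deleted against Thpok-sufficient GP66+ cells, over both days, with the wild type library on the Thpok-sufficient side. No member passed the test by edgeR or by DESeq2, while 1.09% of all genes tested were called by edgeR. At an unadjusted p under 0.05 by edgeR there were 7 nuclear members, all higher, and 3 mitochondrial-encoded members, all lower. Of all 10797 genes tested, 951 were higher and 965 lower at that p, so the nuclear count was near the share of all genes. The median log2 fold change was 0.14 over nuclear and -0.27 over mitochondrial-encoded members, against -0.00 over all genes, and all 13 mitochondrial-encoded members had a value below 0. The mitochondrial-encoded median was -0.64 without the Thpok-deleted library of day 7, -0.05 without the Thpok-deleted or the Thpok-sufficient library of day 30, -0.19 without the Thpok-sufficient library of day 7 and -0.37 without the wild type library.

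The nuclear members with the lowest p were Cox5a (log2 fold change 0.52 ± 0.13, SE; edgeR adjusted p = 0.135) and Ndufb7 (0.53 ± 0.14, SE; edgeR adjusted p = 0.144). Cox5a had 253 and 588 in the Thpok-deleted cells of days 30 and 7, against 169 and 363 in the Thpok-sufficient cells of the same days and 403 in wild type cells of day 7. Ndufb7 had 250 and 514 in the Thpok-deleted cells of days 30 and 7, against 166 and 334 in the Thpok-sufficient cells and 328 in wild type cells. At each day the Thpok-deleted library was the highest, and the genotypes overlapped when the days were pooled. Atp5h, at 641 and 1007 in the Thpok-deleted cells of days 30 and 7, against 428 and 654 in the Thpok-sufficient cells and 613 in wild type cells, had 0.55 ± 0.15 (SE; edgeR adjusted p = 0.170). Cox7a2l (-0.31) and Ndufa7 (-0.22) had the lowest p among those below 0. Among mitochondrial-encoded members mt-Nd6 had the lowest adjusted p, with a log2 fold change of -0.61 ± 0.16 (SE; edgeR adjusted p = 0.157).

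The Thpok-deleted libraries differed in their cells. They held 54 CD8-like and 177 CD4-like cells at day 30 and 243 CD8-like and 404 CD4-like cells at day 7. The Thpok-sufficient library of day 30 held 6 CD8-like and 211 CD4-like cells. At day 7 there were 49 CD8-like and 1316 CD4-like cells in the Thpok-sufficient library, and 38 CD8-like and 1496 CD4-like cells in the wild type library. Other cells were in no class. In the Thpok-deleted libraries of days 30 and 7, 483 and 480 cells held neither Cd4 nor a CD8 gene, and 22 and 190 held both. In the Thpok-sufficient libraries of days 30 and 7 these were 501 and 667 (neither) and 5 and 98 (both). The wild type library held 553 (neither) and 122 (both). Within the Thpok-deleted cells of day 7, the nuclear share was 3.00% (CD8-like) and 3.07% (CD4-like) and the mitochondrial-encoded share 3.55% (CD8-like) and 3.45% (CD4-like). Of 20 cell cycle genes, 14 were higher in Thpok-deleted cells at an unadjusted p under 0.05 and 0 passed the adjusted threshold. Of 12 genes of the dissociation stress list, 6 were lower in Thpok-deleted cells at an unadjusted p under 0.05 and 0 passed the adjusted threshold, with a median log2 fold change of -0.96; the part of this in the values was not tested. The only gene called among the companion lists was Slc2a3, higher in Thpok-deleted cells (log2 fold change 1.72 ± 0.23, SE; edgeR adjusted p = 0.0494), at 34.6 and 44.97 in the Thpok-deleted cells of days 30 and 7, against 13.6 and 10.7 in the Thpok-sufficient cells and 12.1 in wild type cells.

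Whether the genotype difference changed between days was tested as an interaction. No member passed by edgeR, and 0 of all genes tested did (0%), with the lowest adjusted p of a member at 0.705. The median interaction was -0.58 over mitochondrial-encoded and -0.10 over 87 tested nuclear members. The mitochondrial-encoded median of the genotype difference was -0.64 at day 30 and -0.01 at day 7, each with 0 members called, and the interaction rests on 1 library per group at day 30.

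The fourth comparison set GP66+ cells with intact Thpok against total cells, among CD4-like cells of day 7, with 2 libraries on each side. By edgeR and by DESeq2, 0 of 86 nuclear and 0 of 13 mitochondrial-encoded members passed, while 0.458% of all genes tested were called by edgeR. At an unadjusted p under 0.05 by edgeR there were 2 nuclear members, Uqcr10 and Atp5sl, both higher. Of all 10267 genes tested, 699 were higher and 629 lower at that p, a larger share than that of the nuclear members. Uqcr10 had 520 and 482 in the wild type and Thpok-sufficient GP66+ cells, against 411 and 431 in total replicates 1 and 2 (log2 fold change 0.32 ± 0.12, SE; edgeR adjusted p = 0.361). Atp5sl, taken into the set by its symbol, had 30.8 and 24.2 in the wild type and Thpok-sufficient GP66+ cells and 21.1 and 21.0 in total cells (log2 fold change 0.44, edgeR adjusted p = 0.372). Ndufb4 (-0.22) and Atp5k (-0.17) had the lowest p among nuclear members below 0. Without the Thpok-sufficient library, 2 mitochondrial-encoded members were called lower in GP66+ cells, with 3.89% of all genes lower. The medians were 0.10 over nuclear members, -0.06 over mitochondrial-encoded members and 0.00 over all genes. Of the lists of mitochondrial and glycolysis genes only Polg2, the accessory subunit of the mitochondrial DNA polymerase, was called, at 56.2 and 40.8 in the wild type and Thpok-sufficient GP66+ cells and 9.09 and 11.8 in total cells (log2 fold change 2.29 ± 0.20, SE; edgeR adjusted p = 0.0229). Genes of the dissociation stress list moved with this comparison, with 2 of 12 called higher in GP66+ cells and a median log2 fold change of 2.40. They summed to 2794 and 3538 CPM in the wild type and Thpok-sufficient GP66+ cells and to 947 and 1640 in total replicates 1 and 2. The 2 called genes, named after their values were seen, were the phosphatase gene Dusp1 (log2 fold change 4.08, edgeR adjusted p = 0.0152) and Junb, a subunit of the AP-1 transcription factor (2.70, edgeR adjusted p = 0.0229).

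Within each library, cells with more cell cycle UMIs gave more of their RNA to nuclear members, given here as a description with no test. Cells thinned to 1500 UMIs were called cycling with 3 or more cell cycle UMIs and low-cycling with at most 1. At day 7 cycling cells also held more UMIs before thinning, with medians of 6241 (cycling) and 4590 (low-cycling) in the Thpok-deleted library. Over all T cells, Spearman correlations of the thinned nuclear share were 0.09 to 0.46 with UMIs per cell and 0.06 to 0.40 with cell cycle UMIs. The part of UMIs per cell in the ratios below was not tested. The nuclear share of cycling over low-cycling cells was 1.08 and 1.05 in the Thpok-deleted and Thpok-sufficient cells of day 30, and 1.13, 1.12 and 1.09 in the Thpok-deleted, Thpok-sufficient and wild type cells of day 7. In the total libraries it was 1.18 in CD8-like cells of both replicates and 1.12 and 1.13 in CD4-like cells of replicates 1 and 2. The mitochondrial-encoded ratio was 1.02 and 0.99 at day 30 and 0.93, 0.92 and 0.88 at day 7 in the same order, and 0.95 to 0.99 in the classes of the total libraries. At day 30 the nuclear share of cycling cells was 1.86% (Thpok-deleted) and 1.54% (Thpok-sufficient), below the 2.70%, 2.41% and 2.53% of low-cycling Thpok-deleted, Thpok-sufficient and wild type cells of day 7. The median UMIs before thinning were 2496.5 and 2220 in these day 30 cells, against 4590, 5042 and 5291 in these day 7 cells, in the same order.

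**Figure D5:**
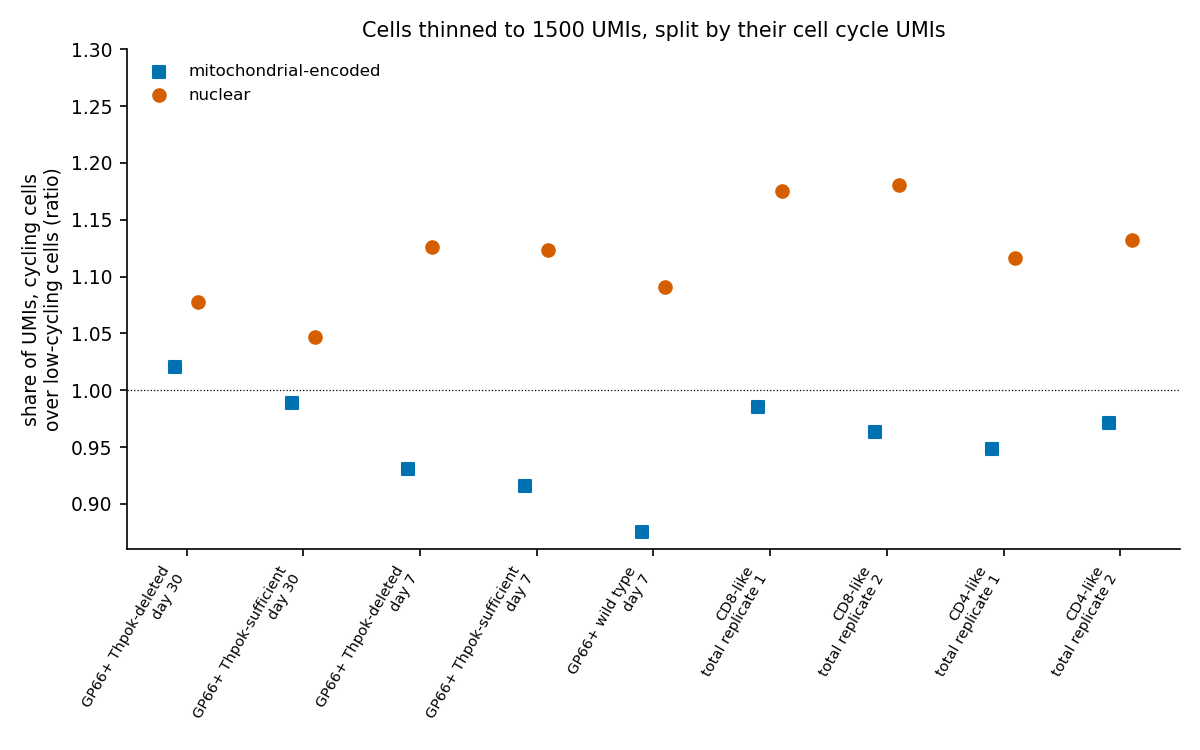
Share of UMIs in cycling over low-cycling cells (ratio, y axis) for mitochondrial-encoded (squares) and nuclear members (circles), 1 pair of points per library or class, in cells thinned to 1500 UMIs. The nuclear ratio was above 1 in every case (1.05 to 1.18), and the mitochondrial-encoded ratio lay between 0.88 and 1.02; the y axis does not start at 0.

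Isoforms of complex IV known from other tissues were near the limit of detection. Cox7b2, Cox8b, Cox8c and Ndufa4l2 had 0 UMIs in all 7 libraries, which allows up to 3 UMIs in each, and Cox4i2 had 4 UMIs in all. Cox6a2, an isoform of heart and skeletal muscle, had 49 UMIs over 6 libraries. Cox7a1, another muscle isoform, had 1 and 0 UMIs in the Thpok-deleted and Thpok-sufficient cells of day 30, and 38, 44 and 79 UMIs in the Thpok-deleted, Thpok-sufficient and wild type cells of day 7 (4.30, 3.54 and 5.54 CPM). It was called lower (edgeR adjusted p = 0.0343), and no fold is given because day 30 rests on 1 UMI. Cox6b2, known from testis, had 85 and 30 UMIs in CD8-like cells of replicates 1 and 2 and 8 and 10 in CD4-like cells, that is 4.76 and 4.81 CPM against 1.15 and 3.29 CPM. It passed as higher in the CD8-like class (log2 fold change 1.48 ± 0.36, SE; edgeR adjusted p = 0.00202).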

How the data were processed

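The authors' deposited files hold UMI counts per gene and barcode, not normalized, empty droplets included. The submitters' processing notes name Cell Ranger, bcl2fastq 2.17 and the build mm10, and the labels' protocols name 10x 3' kits of version 2. RNA reads were 98 or 57 bases long per the labels, which do not say which library had which. Cell Ranger's version and its counting rules were not stated. The members, lists and alternatives were chosen with earlier results of these data known.

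Cells were barcodes with 500 or more genes, no more than 10% mitochondrial-encoded UMIs and a UMI total of 10% or more of a well-specific level, the 99th percentile over its 3000 largest barcodes. Since that limit acts on the members themselves, it was also lifted; it removed 1 to 28 cells per library (0.136% to 0.558%). Cells with 3 or more UMIs over 9 B cell and myeloid genes were left out (0 to 94 per library). Doublets were not called; leaving out the 5% of cells with the most UMIs was an alternative.

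Counts of each library and class were added up and fitted with edgeR 4.0.16 (TMM, filterByExpr, glmQLFit and glmQLFTest; R 4.3.3) on all genes, with Benjamini-Hochberg adjustment over all genes tested and a threshold of 0.05. The summed counts held 1547667 to 32267573 UMIs per library. Residual degrees of freedom were 1 for CD8-like against CD4-like cells, 1 for the interaction of genotype and day, and 2 for the other fits. Total replicates 1 and 2 were a block for CD8-like against CD4-like cells because both classes came from the same capture, so the pairing is that of the library itself. Standard errors are those of the fitted log2 fold change. DESeq2 1.42.0 was the alternative tool. Shares carry exact 95% binomial intervals in the plot, which cover counting error only. Genes named are the 13 mitochondrial-encoded members and the 2 with the highest mean per nuclear complex. Further, up to 4 nuclear members per direction and comparison with the largest change past the threshold and at least 20 CPM (counts scaled to a common library total) were named, or the 2 of lowest p where fewer passed. Isoforms, the paralogues of Atp5g and Cox7a2, and up to 3 called members per companion list complete the rule. Ndufaf3, Sdhc, Uqcrq, Cox6a1, Ndufa3, Ndufa5, Dusp1 and Junb were named after their values were seen. Scripts were tested on simulated data. Coordinates are from GENCODE vM21 (GRCm38).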

Additional observations from a re-analysis of the deposited data

Results flagged for a closer look

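Near-empty droplets, which no comparison uses, held mitochondrial-encoded transcripts at levels far above the limit that a count of 0 allows in every library. Among barcodes of at most 100 UMIs, the 13 members gave 5.35% of UMIs in the Thpok-deleted and 9.01% in the Thpok-sufficient library of day 30. They gave 6.50% in the Thpok-deleted, 6.97% in the Thpok-sufficient and 2.09% in the wild type GP66+ library of day 7, and 3.55% and 6.55% in total replicates 1 and 2. In 6 of these 7 libraries the level exceeded that of the cells; it was lower only in the wild type GP66+ library of day 7.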

How the results depend on the processing

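Day results: with at least 1000 genes per cell, 13 nuclear members fell and 2 mitochondrial-encoded members rose at day 30, against 57 and 7 in the reported fit. With at most 1 cell cycle UMI per cell these were 0 and 1, but this setting left 1 Thpok-deleted cell of day 7. Nuclear members called at day 30 were 26 among CD4-like cells, 8 in cells of 1500 to 3500 UMIs and 13 in cells with at most 1 cell cycle UMI among 1500 drawn. Leaving out each library in turn gave 0 to 61 nuclear and 0 to 7 mitochondrial-encoded members; the lone library left in a group is then assumed to vary like the others. Lineage results: of the 9 mitochondrial-encoded and 39 nuclear members called between CD8-like and CD4-like cells, DESeq2 called 3 and 19, the fit without the replicate block 0 and 5, cells with at most 1 cell cycle UMI 0 and 0, cells of 1500 to 3500 UMIs 2 (both higher in CD8-like cells) and 24, and cells with at most 1 cell cycle UMI among 1500 drawn 1 and 12. With at least 2 coreceptor UMIs per cell 23 nuclear members were called. Leaving out a total library gave no test. In the comparison of GP66+ with total cells, 1 mitochondrial-encoded member was called without a filter on low counts, and 0 to 2 when each library was left out. The median nuclear share over the 7 libraries was 2.68%, and 2.04% with at most 1 cell cycle UMI per cell. Single genes turned direction mostly in that same small set of cells. There, CD8-like over CD4-like log2 fold changes were 0.16 for mt-Nd2, 0.0438 for mt-Atp6, 0.0359 for mt-Nd4, -0.12 for Ndufa13, -1.22 for Sdhb, -0.27 for Ndufa6 and -0.12 for Cox7a2. Atp5k was at 0.12 in GP66+ over total cells, Ndufb7 at -0.47 for Thpok-deleted over Thpok-sufficient cells, and Ndufb7 at 0.21 and Cox7a2l at -0.0937 for day 30 over day 7. Sdhb was at -0.0473 in cells with at most 1 cell cycle UMI among 1500 drawn, and in cells of 1500 to 3500 UMIs mt-Co1 was at 0.17, mt-Co3 at 0.0469 and Sdhd at -0.0573 for CD8-like over CD4-like cells. The cause was not tested for these changes. The last 2 kinds of cell selection, by 1500 drawn UMIs and by 1500 to 3500 UMIs, and library totals were chosen after seeing the data. For several settings here, among them at least 1000 genes and at least 2 coreceptor UMIs per cell, the share of all genes called is not given. Those counts alone cannot separate a change in the members from a change in calls over all genes. No member was called for genotype under any alternative run, and library totals gave 61 nuclear and 7 mitochondrial-encoded members for day and 13 mitochondrial-encoded and 29 nuclear members between CD8-like and CD4-like cells.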
